A study of Mus musculus with 5 samples.

Results

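Folliculin (*Flcn*), its partners *Fnip1* and *Fnip2*, and the subunits of AMP kinase (AMPK) were examined in the kidney cortex of *Fnip1* null mice. The genes were chosen by name: *Fnip1*, *Fnip2*, *Flcn*, the catalytic alpha subunits *Prkaa1* and *Prkaa2*, the beta subunits *Prkab1* and *Prkab2*, and the gamma subunits *Prkag1* and *Prkag2*. These are 9 of the 24421 gene symbols in the count tables, and all 9 were among the 13874 genes with enough counts to be tested. RNAseq was performed on whole cortical tissue, with 1 library per mouse, from 3 *Fnip1* null mice (genotype Fnip1-/-, mice 8637, 9210 and 9121) and 2 wildtype mice (genotype Fnip1+/+, mice 9055 and 9056), all on the C57BL6J background. These are the genotypes of the sample labels. A passage of the study names Fnip1+/- mice as the controls of the RNAseq, so levels relative to wildtype rest on the labels. The study describes 3 wildtype mice for its RNAseq, and 2 are among the samples used here. The deposited table of the mouse labelled 9210 bears a different mouse number, and the label was followed. The null allele came from ENU mutagenesis and is constitutive, so every tissue of the animal carries it. No treatment was given, and the sample labels state neither age nor sex. For its RNAseq mice the study gives a range of ages in weeks, but not the age of each mouse.

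Folliculin binds Fnip1 or Fnip2, and the complex acts at the lysosome, where it promotes GTP hydrolysis by RagC and RagD and so controls which substrates the nutrient-sensing kinase mTORC1 can reach. AMPK is a heterotrimer of an alpha, a beta and a gamma subunit that is switched on when cellular AMP rises, through phosphorylation of a threonine in the activation loop of the alpha subunit, and Fnip1 is known to bind both Folliculin and AMPK. In the kidney, loss of Folliculin is known to lead to cysts and tumors. RNAseq measures the transcripts of these genes, not the abundance of their proteins or the phosphorylation of AMPK.

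Gene counts per mouse ran from 15799114 to 19132145, and levels are given as normalized CPM, the counts of a gene scaled to a library of fixed size. A gene with 3 counts is at 0.158 to 0.186 CPM depending on the mouse. The members lay far above this limit, with 132 to 5753 counts per mouse. Mouse 9121 stood apart from the other 4 mice in genes of the sex chromosomes. *Xist*, transcribed from the inactive X chromosome, was at 314.4 CPM in mouse 9121 and at 0.17 to 1.41 CPM in the others, while the Y-linked *Ddx3y*, *Kdm5d* and *Uty* had 0 counts in mouse 9121 and 17.3 to 52.2 CPM in the others. The Y-linked *Eif2s3y* had 7 counts in mouse 9121 and 450 to 789 in the others. This is the pattern of a female for mouse 9121 and of males for the other 4 mice. No wildtype mouse had the female pattern, so sex was not balanced between the genotypes. Markers of renal tubules were abundant in every mouse, and the summed level of 4 skeletal muscle markers was at most 2.18 CPM and that of 4 adrenal markers at most 4.54 CPM. In bulk tissue, fewer cells of a type and less RNA per cell cannot be told apart.

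The paralogous members are similar in sequence, and the stretches below show how far the reads can separate them. In each pair of lines, 60 bases of the coding sequence are given 5′ to 3′, and capitals mark the 7 (*Fnip1* and *Fnip2*) or 8 (*Prkaa1* and *Prkaa2*) bases that differ. The *Fnip* lines hold the longest run that their coding sequences share, and the *Prkaa* lines surround the codon of the activation-loop threonine, codon 183 of *Prkaa1* and codon 172 of *Prkaa2* in these transcripts.
Fnip1 coding bases 371 to 430: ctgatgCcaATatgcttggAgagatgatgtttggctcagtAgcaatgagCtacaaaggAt
Fnip2 coding bases 386 to 445: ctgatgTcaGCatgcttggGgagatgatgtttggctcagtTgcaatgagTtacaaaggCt
Prkaa1 coding bases 517 to 576: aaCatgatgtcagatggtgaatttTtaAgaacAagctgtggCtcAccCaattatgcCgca
Prkaa2 coding bases 484 to 543: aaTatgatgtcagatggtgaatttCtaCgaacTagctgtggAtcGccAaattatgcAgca
The transcripts are those of GENCODE M21 on GRCm38. The longest identical run between the coding sequences was 20 bases for *Fnip1* and *Fnip2*, 35 bases for *Prkaa1* and *Prkaa2*, 23 bases for *Prkab1* and *Prkab2* and 15 bases for *Prkag1* and *Prkag2*, all shorter than the 50-base reads. No 50-base window of the *Fnip1*, *Flcn*, *Prkaa1*, *Prkaa2*, *Prkab1* or *Prkab2* transcripts occurred in a transcript of another gene. For *Fnip2* the share was 0.869% of the windows and for *Prkag2* 0.213%. For *Prkag1* 30.9% of the windows also lie in transcripts of B130046B21Rik, a gene annotated on the opposite strand. Antisense or opposite-strand genes likewise overlap the annotated bodies of *Fnip2*, *Prkaa1*, *Prkab1*, *Prkab2* and *Prkag2*. Whether strand was used in counting is not given in the sources used here, so reads of such a partner cannot be told apart from reads of the member where the partner has no row of its own. The partner of *Fnip2*, Gm17359, has a row with 0 counts in all mice, and Prkag2os1, which is among the partners of *Prkag2*, a row with 1 count in all.

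*Fnip1* was the only member whose expression differed significantly between the genotypes, and it was lower in *Fnip1* null kidneys. *Fnip1* (chromosome 11, 54438199 to 54518235, plus strand, GRCm38) was at 20.98, 16.94 and 16 CPM in null mice 8637, 9210 and 9121, and at 51.75 and 48.68 CPM in wildtype mice 9055 and 9056. Every null mouse was below both wildtype mice, and the null mean of 17.97 ± 2.65 CPM (SD, n = 3) compared with 50.22 ± 2.18 CPM (SD, n = 2) in wildtype mice. The log2 fold change of null over wildtype was -1.48 (SE 0.136, 95% interval -1.81 to -1.15), so that 35.8% of the wildtype level remained. The false discovery rate (FDR), the Benjamini-Hochberg adjusted p of edgeR's quasi-likelihood test over all genes tested, was 0.0313. At an FDR of 5%, 0.735% of all genes tested were called, and with a change of at least 2-fold 0.533% were. The fall of *Fnip1* goes with the genotype labels of all 5 mice, although the tables count whole genes, so the altered part of the transcript is not seen in them. The call was lost without null mouse 9210 (log2 fold change -1.44, edgeR adjusted p = 0.127), without wildtype mouse 9055 (-1.44, adjusted p = 0.212) and without wildtype mouse 9056 (-1.53, adjusted p = 0.506), settings in which no gene of the table was called by edgeR's quasi-likelihood test. In these settings 2048, 2460 and 1225 genes had an unadjusted p under 0.05.

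**Figure D1:**
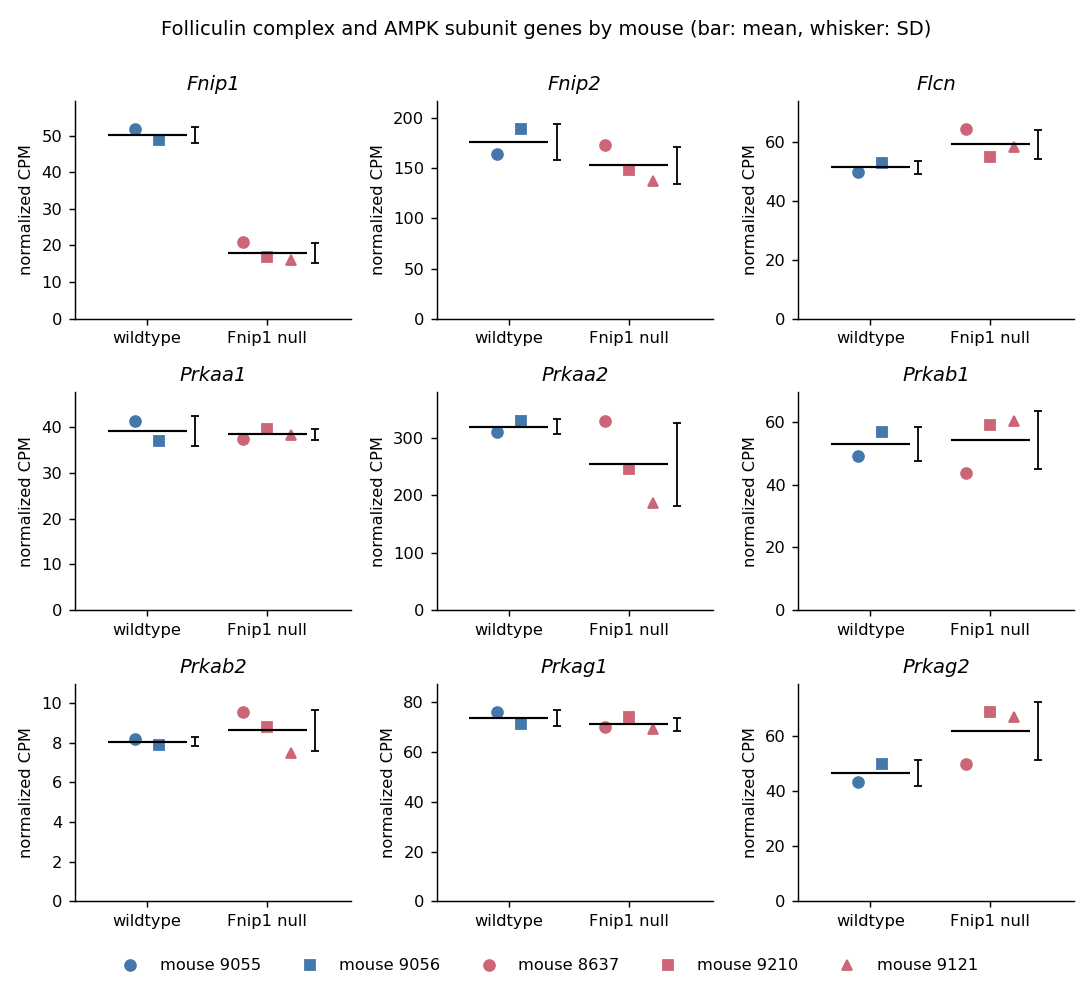
Normalized CPM of the 9 genes (vertical axes, each starting at 0) in 2 wildtype mice (blue) and 3 *Fnip1* null mice (red), with 1 symbol per mouse, a bar at the group mean and a whisker of 1 SD. *Fnip1* is at 16 to 20.98 CPM in null and 48.68 to 51.75 CPM in wildtype mice, and mouse 8637 (red circle) is nearer to the wildtype mice than the other null mice are for *Prkaa2* and *Prkag2*.

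*Fnip2* (chromosome 3, 79455974 to 79567796, minus strand), which encodes the alternative partner of Folliculin, was not significantly different. It was at 173.3, 148.2 and 137.5 CPM in null mice 8637, 9210 and 9121 and at 163.8 and 188.9 CPM in wildtype mice. Null mouse 8637 lay between the wildtype mice, and the other null mice lay below them. The log2 fold change was -0.20 (95% interval -0.52 to 0.11, FDR = 0.369), and the upper end of the interval corresponds to 1.08 times the wildtype level.

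*Flcn* (chromosome 11, 59791408 to 59810016, minus strand), which encodes Folliculin itself, lies 5.27 Mb from *Fnip1* on the same chromosome. It was at 64.35, 54.93 and 58.24 CPM in null mice 8637, 9210 and 9121 and at 49.83 and 53.02 CPM in wildtype mice. Every null mouse was above both wildtype mice, but the log2 fold change of 0.20 (SE 0.101, 95% interval -0.04 to 0.45) did not pass the test (FDR = 0.265). Groups that do not overlap were found for 2 of the 9 members (22.2%), *Fnip1* and *Flcn*, and for 45.9% of all genes tested.

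Among the catalytic alpha subunits, *Prkaa1* was alike in all mice and *Prkaa2* varied among the null mice. *Prkaa1* (alpha 1, chromosome 15, 5143861 to 5181899) was at 37.36, 39.65 and 38.28 CPM in null mice 8637, 9210 and 9121 and at 41.44 and 36.89 CPM in wildtype mice. All null values fell between the wildtype values, and the log2 fold change was -0.03 (95% interval -0.26 to 0.21, FDR = 0.884). *Prkaa2* (alpha 2, chromosome 4, 105029874 to 105109890) was at 330.4, 246.6 and 185.9 CPM in null mice 8637, 9210 and 9121 and at 310.5 and 329.1 CPM in wildtype mice. Mouse 8637 was as high as the wildtype mice, and mice 9210 and 9121 were below them. The null SD of *Prkaa2* was 72.5 CPM against 13.2 CPM in wildtype mice, and the log2 fold change of -0.33 (SE 0.230, 95% interval -0.89 to 0.22) did not pass the test (FDR = 0.406). Without mouse 8637 *Prkaa2* was called lower at -0.56 (edgeR adjusted p = 0.0492), in a setting in which 19.7% of all genes tested were called.

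Markers of the proximal tubule, the main cell type of the cortex, did not move as 1 group. The summed level of 7 such markers was 11040, 8793 and 7917 CPM in null mice 8637, 9210 and 9121, and 11520 and 13070 CPM in wildtype mice. None of the 7 markers was at 0 in every mouse, and 5 of the 7 had a negative log2 fold change. By edgeR's quasi-likelihood test 0 were called, against 0.735% of all genes tested. A list this short would hold few calls at that share. The phosphate transporter gene *Slc34a1* made up the largest portion of the sum, at 5368, 4821 and 3963 CPM in the null mice in that order and 5717 and 6346 CPM in wildtype mice. *Slc22a6* was at 1052, 517 and 401.4 CPM in the null and 1287 and 1643 CPM in the wildtype mice. *Lrp2* was at 1931, 1380 and 1550 CPM against 2325 and 2552 CPM. *Cubn* and *Slc13a3* also had negative log2 fold changes, with groups that overlapped. The glucose transporter gene *Slc5a2* and the monocarboxylate transporter gene *Slc5a12* were instead higher in every null mouse, the latter at 721.9, 571.8 and 457.2 CPM against 398.1 and 355.7 CPM. The part of these cells in the values of *Prkaa2* was not tested.

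The beta subunits, which carry the glycogen-binding domain and hold the heterotrimer together, were not significantly different. *Prkab1* (beta 1, chromosome 5, 116013586 to 116024508) was at 43.73, 59.04 and 60.57 CPM in null mice 8637, 9210 and 9121 and at 49.27 and 56.80 CPM in wildtype mice. Mouse 8637 was the lowest of the 5 mice and the other null mice the highest, with a log2 fold change of 0.04 (95% interval -0.35 to 0.43, FDR = 0.902). *Prkab2* (beta 2, chromosome 3, 97658193 to 97673812) was at 9.55, 8.80 and 7.50 CPM in the null mice in the same order and at 8.20 and 7.89 CPM in wildtype mice. The null values spanned the wildtype values, and the log2 fold change was 0.10 (95% interval -0.31 to 0.50, FDR = 0.747). *Prkab2* rested on the fewest reads of the members, 132 to 162 counts per mouse.

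The gamma subunits bind AMP, ADP and ATP and so hold the energy-sensing sites of AMPK. *Prkag1* (gamma 1, chromosome 15, 98812797 to 98831521) was at 69.83, 73.90 and 69.33 CPM in null mice 8637, 9210 and 9121 and at 76.05 and 71.33 CPM in wildtype mice. The groups overlapped, and the log2 fold change of -0.05 had the narrowest interval of the members (95% interval -0.26 to 0.15, FDR = 0.725). *Prkag2* (gamma 2, chromosome 5, 24862744 to 25100642) was at 49.68, 68.55 and 66.69 CPM in the null mice in the same order and at 43.12 and 49.88 CPM in wildtype mice. Mice 9210 and 9121 were above both wildtype mice, and mouse 8637 lay just below the higher wildtype mouse. The log2 fold change of *Prkag2* was 0.41 (SE 0.162, 95% interval 0.01 to 0.80) and did not pass the test after adjustment over all genes (FDR = 0.189).

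Without mouse 8637 *Prkag2* was called higher at 0.54 (edgeR adjusted p = 0.0209), in the same setting in which 19.7% of all genes were called. Summed markers of the distal nephron were also higher in every null mouse than in both wildtype mice, with no single marker called. The summed level of 4 collecting duct markers was 442.4, 617.9 and 622.2 CPM in null mice 8637, 9210 and 9121 and 312.1 and 304.2 CPM in wildtype mice, with all 4 log2 fold changes positive, 0 of the 4 called by edgeR's quasi-likelihood test and none at 0 in every mouse. That of 3 distal tubule markers was 1489, 1705 and 1638 CPM in the null mice in the same order and 1068 and 1253 CPM in wildtype mice, with 2 of the 3 log2 fold changes positive, 0 called and none at 0 in every mouse. With all 5 mice 0.735% of all genes tested were called, and lists this short would hold few calls at that share. The part of these cells in the values of *Prkag2* was not tested.

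**Figure D2:**
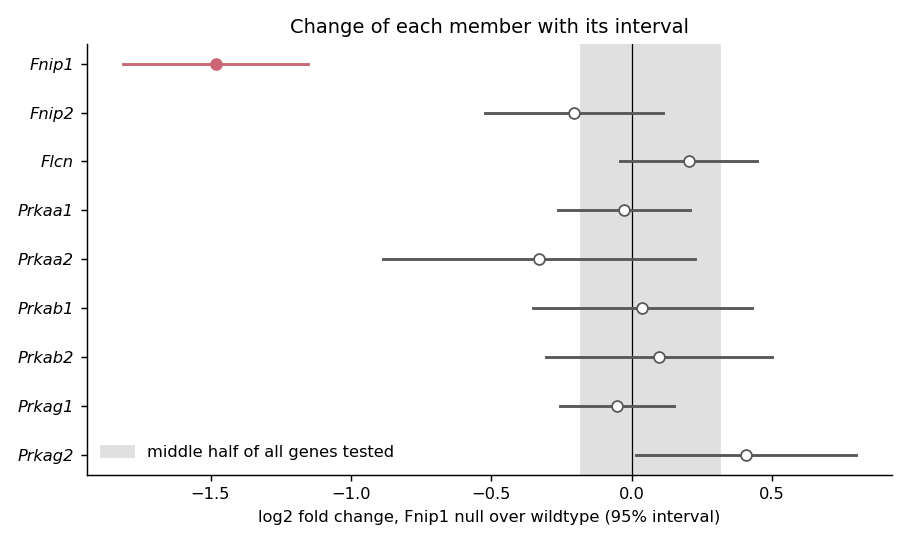
Log2 fold change of *Fnip1* null over wildtype (horizontal axis) for each gene, with its 95% interval as a line. The filled red point is significant at an FDR of 5%, open points are not, and the grey band is the interquartile range of all genes tested; the interval of *Fnip1* runs from -1.81 to -1.15, and those of the other genes except *Prkag2* include 0.

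Taking the 9 members as a list, 1 fell (*Fnip1*), 0 rose and 8 did not pass the test. The median log2 fold change was -0.03, against 0.003 over all genes tested. Of the 6 AMPK subunit genes, 0 were called, against 0.735% of all genes tested, a share at which 6 genes would hold few calls. *Fnip1* was the only member called under all 9 alternative settings that kept the 5 mice, which changed the normalization, the filter or the test. Without mouse 9121, the mouse whose sex chromosome genes stood apart, *Fnip1* remained the only member called, at 1.43% of all genes tested. Without mouse 8637, 3 members were called, *Fnip1*, *Prkaa2* and *Prkag2*, in a fit that called 19.7% of all genes tested.

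**Figure D3:**
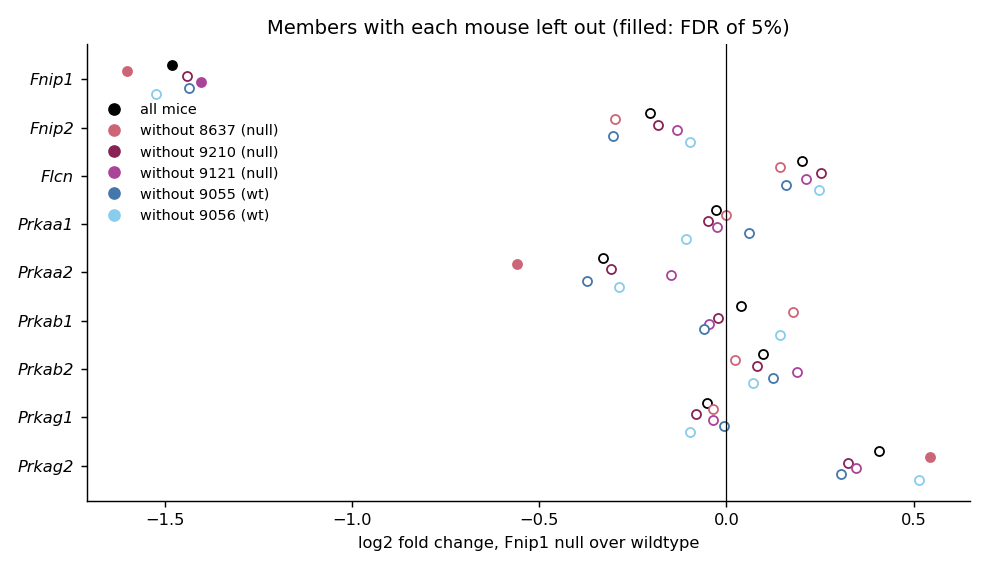
Log2 fold change of *Fnip1* null over wildtype (horizontal axis) for each gene with all 5 mice (black) and with each mouse left out (colors), filled where the FDR was at most 5%. *Fnip1* stays between -1.60 and -1.40, while *Prkaa2* moves from -0.56 to -0.15 and *Prkag2* from 0.31 to 0.54 with the mouse left out.

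The balance of *Fnip1* and *Fnip2* transcripts within a mouse was computed from CPM per kb of exon, a scale on which genes of different length can be compared. *Fnip2* was 7.03, 7.45 and 7.31 times as abundant as *Fnip1* in null mice 8637, 9210 and 9121, and 2.69 and 3.30 times as abundant in wildtype mice. *Fnip2* made up 87.5%, 88.2% and 88% of the pair in the null mice and 72.9% and 76.8% in the wildtype mice. The ratio was 2.43-fold higher in null mice. It restates the fall of *Fnip1*, since *Fnip2* itself was at 153.0 CPM in null and 176.4 CPM in wildtype mice, and is given as a description with no test. The level of both together was 20.8 ± 2.57 CPM per kb (SD, n = 3) in null and 28.1 ± 1.81 CPM per kb (SD, n = 2) in wildtype mice, 0.74 of the wildtype level.

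The same ratio was computed for the AMPK pairs and tested by two-sided exact permutation of the log2 ratio, for which 0.1 is the smallest p that 3 against 2 mice allow. *Prkaa2* over *Prkaa1* was 5.17, 3.63 and 2.84 in null mice 8637, 9210 and 9121, against 4.38 and 5.21 in the wildtype mice (exact permutation p = 0.4). Mouse 8637 was again among the wildtype values. *Prkab2* over *Prkab1* was 0.131, 0.0897 and 0.0745 in the null mice and 0.1 and 0.0836 in the wildtype mice (exact permutation p = 0.9), so *Prkab1* was the predominant beta transcript in every mouse. *Prkag2* over *Prkag1* was 0.239, 0.311 and 0.323 in the null mice and 0.190 and 0.235 in the wildtype mice. These gamma values did not overlap between the groups, but mouse 8637 exceeded the higher wildtype mouse only slightly, and the difference of 0.45 on the log2 scale did not reach the smallest p allowed (exact permutation p = 0.2). None of these 3 ratios could have passed 0.05, before or after adjustment. Summed within a class, alpha subunit transcripts in null mice were at 0.828 of the wildtype level and beta subunit transcripts at 1.03. Gamma subunit transcripts, here with those of the remaining gamma gene *Prkag3* added, were at 1.04. The alpha sum was 49.48, 39.46 and 31.55 CPM per kb in null mice 8637, 9210 and 9121. It was 47.86 and 49.22 CPM per kb in wildtype mice, so mouse 8637 was above both.

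**Figure D4:**
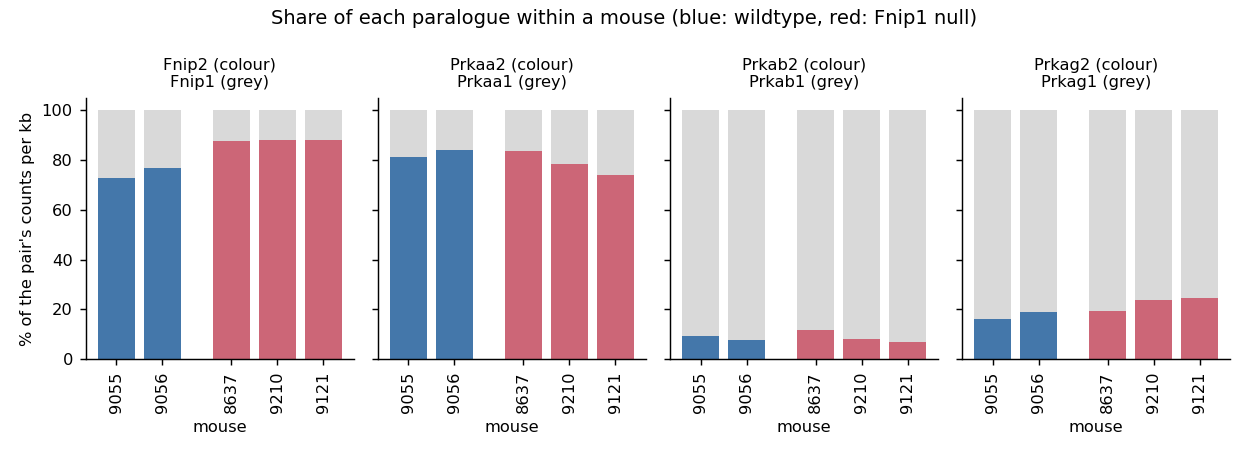
Share of CPM per kb within each pair of paralogues (vertical axis, percent) for every mouse (horizontal axis), with the gene named first in color (blue in wildtype, red in *Fnip1* null mice) and the other in grey. *Fnip2* makes up 87.5% to 88.2% of the pair in the 3 null mice, in which *Fnip1* is lower, while *Prkaa2* and *Prkag2* shares in mouse 8637 are close to those of a wildtype mouse.

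Per kb of exon, *Prkaa2* was the most abundant member in wildtype cortex at 38.96 to 41.29 CPM per kb. *Prkag1* followed at 32.79 to 34.96, *Fnip2* at 19.59 to 22.58, *Prkab1* at 16.07 to 18.53, *Flcn* at 11.53 to 12.27 and *Prkaa1* at 7.93 to 8.90 CPM per kb. *Prkag2* (6.65 to 7.70 CPM per kb) and *Fnip1* (6.84 to 7.27 CPM per kb) overlapped and could not be ordered, and *Prkab2* was lowest at 1.55 to 1.61 CPM per kb. In null mice *Prkag1* and *Prkaa2* overlapped at the top, as did *Fnip2*, *Prkab1* and *Flcn* in sequence, and *Fnip1* fell to 2.25 to 2.95 CPM per kb, above only *Prkab2* at 1.47 to 1.87 CPM per kb. The order depends on the length used, and that of the longest coding transcript was tried after the values were seen. With it, *Prkag1* came first in wildtype mice, and *Prkag2* was above *Prkaa1* and, without overlap, above *Fnip1*. On that scale *Prkab1* overlapped *Fnip2*, *Prkag2* overlapped *Flcn* and *Prkaa1* overlapped *Fnip1*. *Prkag3*, the remaining gamma gene, was detected at 212, 127 and 54 counts in null mice 8637, 9210 and 9121 and at 77 and 91 counts in wildtype mice, and was not significantly different (log2 fold change 0.61, FDR = 0.525).

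The genes that surround the complex were then described by list. Of 19 genes whose products work with the Folliculin complex (the Rag GTPases, the Ragulator subunits, the amino acid sensor *Slc38a9*, the *Smcr8* complex, Gabarap proteins, Hsp90 and *Tsc1*), 1 rose, 0 fell and 18 did not pass the test, where 0.735% of all genes tested were called, and the median log2 fold change was -0.05. The gene that rose was *Rragd*, which encodes RagD, a GTPase on which the Folliculin complex acts. *Rragd* was at 209.3, 220.0 and 198.3 CPM in null mice 8637, 9210 and 9121 and at 103.0 and 105.6 CPM in wildtype mice, with no overlap between the groups and a null mean 2.01 times the wildtype mean (log2 fold change 1.0, SE 0.0956, FDR = 0.0313). Mouse 8637 did not stand apart from the other null mice for *Rragd*. Without mouse 9210, 9055 or 9056 0 genes of this list were called by edgeR's quasi-likelihood test, as for the whole table. *Rragc*, which encodes the related RagC, was at 118.0, 112.5 and 109.2 CPM in the null and 96.6 and 101.0 CPM in the wildtype mice (log2 fold change 0.20, FDR = 0.214). *Slc38a9* had a log2 fold change of -0.39 and did not pass the test (FDR = 0.122).

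Of 8 upstream kinases of AMPK and their partners, 0 rose and 0 fell by edgeR's quasi-likelihood test, with a median log2 fold change of -0.10. A list this short would hold few calls at the 0.735% called over all genes tested, and the same holds for the AMPK-related kinases. *Stradb*, which encodes a pseudokinase partner of the AMPK-activating kinase LKB1, was at 50.8, 43.1 and 41.4 CPM in null mice 8637, 9210 and 9121 and at 61.0 and 66.5 CPM in wildtype mice. All null mice were below the wildtype mice, and the log2 fold change of -0.50 did not pass the test (FDR = 0.0894). *Map3k7*, which encodes the kinase TAK1, and *Strada* had log2 fold changes of -0.16 (FDR = 0.315) and -0.22 (FDR = 0.325), and *Stk11*, which encodes LKB1 and was singled out after its value was seen, of -0.09 (FDR = 0.592). Of the 12 tested AMPK-related kinases, which LKB1 also activates or which share the AMPK kinase fold, 0 were called by edgeR's quasi-likelihood test, with a median of 0.07. The smallest p values belonged to the polarity kinases *Mark2* (log2 fold change -0.28, FDR = 0.136) and *Mark3* (-0.40, FDR = 0.142) and to *Melk* (1.55, FDR = 0.151), a mitotic kinase with only 5 to 25 counts per mouse. *Melk* had under 10 counts in both wildtype mice and so passed the filter on low counts only through the null mice, where it is higher.

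Of 25 genes whose products are AMPK substrates, 0 rose and 0 fell by edgeR's quasi-likelihood test, where 0.735% of all genes tested were called. At that share this list, and the shorter marker lists below, would hold few calls. Of the 25 log2 fold changes of the substrates, 18 were positive. The median was 0.12, and 50.5% of all genes tested had a positive value. Groups did not overlap for 11 of the 25 (44.0%), against 45.9% of all genes tested. *Acacb*, which encodes the acetyl-CoA carboxylase at the mitochondrion, was at 88.2, 95.8 and 115.9 CPM in null mice 8637, 9210 and 9121 and at 58.5 and 48.5 CPM in wildtype mice (log2 fold change 0.90, FDR = 0.0622). *Pfkfb3*, which makes the allosteric activator of glycolysis fructose-2,6-bisphosphate, had a log2 fold change of 0.70 (FDR = 0.0925), and the glycogen synthase gene *Gys1* of 0.38 (FDR = 0.0953). For these 3 genes every null mouse was above both wildtype mice. Summed markers of leukocytes were at 285.1 to 699.8 CPM in null and 159.1 to 252.4 CPM in wildtype mice. All 8 log2 fold changes were positive and 0 were called by edgeR's quasi-likelihood test. Summed markers of adipocytes, which express *Acacb*, were at 54.0, 347.7 and 162.4 CPM in null mice 8637, 9210 and 9121. They were at 35.4 to 36.5 CPM in wildtype mice. In mouse 8637, *Fabp4* made up 48.4 CPM of the adipocyte sum. All 4 tested adipocyte markers had positive log2 fold changes and 0 were called, and the groups did not overlap for 1 of the 4. None of the 8 leukocyte and 6 adipocyte markers was at 0 in every mouse, and their part in the values of the substrates was not tested.

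**Figure D5:**
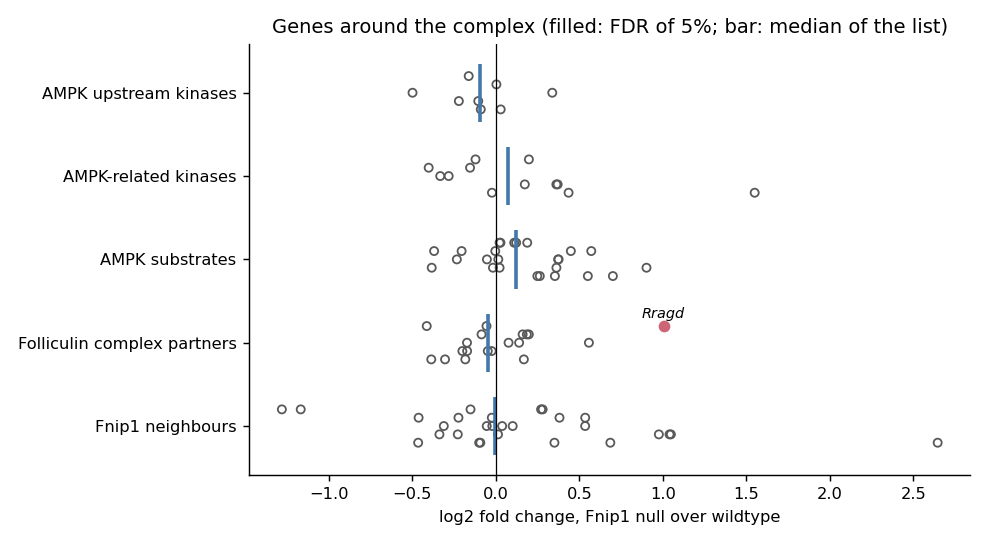
Log2 fold change of *Fnip1* null over wildtype (horizontal axis) for each tested gene of 5 lists (rows), with a blue bar at the list's median and filled red points at an FDR of at most 5%. *Rragd*, at 1.0, is the only filled point, and the medians lie between -0.10 and 0.12.

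Genes near *Fnip1* on chromosome 11 were described next. Of 28 tested genes within 1 Mb of *Fnip1*, 0 were called by edgeR's quasi-likelihood test, where 0.735% of all genes tested were. A list of this length would hold few calls at that share. Of the 28 genes, 14 were above and 14 below 0 on the log2 fold change scale, and their median was -0.004. *Anxa6*, which encodes a calcium-dependent membrane-binding protein, was at 97.1, 124.3 and 142.1 CPM in null mice 8637, 9210 and 9121 and at 65.4 and 57.9 CPM in wildtype mice (log2 fold change 0.98, FDR = 0.0646). *Acsl6*, a long-chain acyl-CoA synthetase gene that ends 73.4 kb before *Fnip1*, had 50, 25 and 35 counts in the null mice and 6 and 5 counts in the wildtype mice (log2 fold change 2.65, FDR = 0.0661). With both wildtype mice under 10 counts, *Acsl6* passed the filter on low counts only through the null mice, where it is high, so its size and rank rest on that filter. *Sparc*, which encodes a matrix protein, had a log2 fold change of 1.05 (FDR = 0.122). The groups did not overlap for any of these 3 genes, as for 45.9% of all genes tested.

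The genes whose pattern over the 5 mice was nearest to that of *Fnip1* were found by the root mean square (RMS) difference of log2 CPM, each gene centred on its own mean, as a description that all genes lower in null mice share. They were *Frzb*, a secreted Wnt antagonist (RMS difference 0.106), *Hsf2bp* (0.121), *Mpped2* (0.125), the lipoprotein lipase gene *Lpl* (0.128) and the chymosin gene *Cym* (0.128). *Lpl* was at 765.2, 489.1 and 558.7 CPM in null mice 8637, 9210 and 9121 and at 1612 and 1725 CPM in wildtype mice. *Frzb* was at 22.2, 16.5 and 18.1 CPM in the null and 47.5 and 47.0 CPM in the wildtype mice. No other member was near *Fnip1* by this measure: among all genes *Prkaa2* ranked 1440, *Fnip2* 2689 and *Prkag2* 10737. As the measure keeps the size of a change, these ranks restate the small fold changes of these members.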

How the data were processed

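The authors prepared libraries from total RNA with the TruSeq RNA kit, sequenced them as paired 50-base reads, aligned them to mm10 with TopHat 2.1.0 and counted reads per gene with HTSeq 0.6.1. The deposited values are these raw counts per gene symbol, without normalization. The annotation and strand setting used in counting are not given in the sources used here. Rows that name no gene (39.0% to 42.8% of each file's total) were left out.

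The analysis used edgeR 4.0.16 in R 4.3.3. A gene was left out when over 2 of the 5 mice had under 10 counts. After TMM normalization, null and wildtype mice were compared by the quasi-likelihood test of edgeR at this version's defaults, with Benjamini-Hochberg adjustment over 13874 genes. This called 102 genes (77 higher and 25 lower in null mice); with library sizes alone 98 were called (85 higher and 13 lower). p-values measure only the spread between these mice. Genes other than the members were named by rule: in each list those at an FDR of 5% and the 3 with the smallest p, and the 5 nearest to *Fnip1* in pattern. *Stk11* and the single markers of the proximal tubule and sex chromosomes were named outside this rule, after their values were seen. The members and lists were chosen with earlier results of these data known. A marker list was left out and is not reported here. Coordinates and exon lengths were taken by symbol from GENCODE M21 (GRCm38). Alternatives changed the normalization, filter and test, and left out each mouse.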

Additional observations from a re-analysis of the deposited data

How the results depend on the processing

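Of 146 alternative values of fold changes and ratios, 133 kept their direction and, for fold changes, their side of the threshold. Ratios were judged by direction alone, because their p could not pass the threshold. Of 98 alternative counts of called genes, 59 stayed within 1.5 times the reported count. Both tallies include the legacy setting described below, which equals the reported fit and could not differ from it. Calls at an FDR of 5% moved from 102 to 237 without the filter on low counts, 1362 by the exact test of edgeR, 1472 by the likelihood ratio test of edgeR and 1419 by DESeq2, and calls that also changed 2-fold from 74 to 145, 570, 628 and 489. Leaving out 1 mouse gave 0 to 2740 and 0 to 902 calls. In the same settings without the filter, exact, likelihood ratio and DESeq2, AMPK substrates had 1, 2, 2 and 4 calls and *Fnip1* neighbours 1, 3, 3 and 3. AMPK upstream kinases had 1 call with each of the last 3 tests. In the same order, these settings called 1.33%, 9.82%, 10.6% and 10.2% of all genes tested. With 1 null mouse left out, calls ran from 0 to 1 for upstream kinases, 0 to 2 for AMPK-related kinases and 0 to 6 for substrates. They ran from 0 to 2 for partners and 0 to 7 for neighbours. The upper end of each range came from the fit without mouse 8637, in which 19.7% of all genes tested were called. With library sizes alone, *Prkaa1* turned to 0.14 and *Prkag1* to 0.11, while the median of all genes moved to 0.167, so relative to that median both remained lower. With 1 mouse left out, log2 fold changes ran from -1.60 to -1.40 for *Fnip1*, -0.11 to 0.059 for *Prkaa1*, -0.56 to -0.15 for *Prkaa2*, -0.061 to 0.18 for *Prkab1* and 0.31 to 0.54 for *Prkag2*, and the difference of the *Prkab2* over *Prkab1* ratio from -0.16 (without mouse 8637) to 0.25, and it was also below 0, at -0.07, without mouse 9056. The cause was not tested. Where a wildtype mouse is left out, the remaining one is assumed to vary like the null mice. The method that edgeR names legacy is the default of this version, so that alternative equals the reported fit, and the newer method, added after the data were seen, called 94 genes. No paired analysis was possible because the labels give mouse numbers only: the replicate numbers used here follow the order of the samples and tie no null mouse to a wildtype mouse.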
